A study of Mus musculus with 11 samples.

Results

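The genes examined here encode 6 surface receptors that set how strongly a T cell responds once its antigen receptor is engaged: the costimulatory receptors *Cd28* and *Icos*, the inhibitory receptors *Ctla4* and *Pdcd1* (which encodes PD-1), and *Cd5* and *Cd6*, scavenger-receptor family proteins that tune antigen receptor signalling. They are 6 of 21938 protein-coding genes. For each of them, every ATAC-seq peak that overlapped the gene body or the 20 kb on either side of it in the mm10 mouse genome was taken. This gave 211 of 298164 peaks. Merging peaks with an overlap of 1 bp or more across libraries left 59 of 71400 intervals. An interval was called open in a library when the library had a peak in it. A missing peak means that none was called. The study's methods state the reads per library only as a range over all of them, so a closed interval cannot be told from one that was not detectable at that depth.

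CD28 and CTLA-4 bind the same ligands, CD80 and CD86, with opposite effects, and ICOS is a relative of CD28 that binds ICOSL. PD-1 is induced on activated T cells and recruits phosphatases when it meets its ligands. It also marks bone marrow precursors of innate lymphoid cells. CD5 is expressed from early T cell development on and restrains signalling in thymocytes, and CD6 binds CD166 (encoded by *Alcam*) on other cells. *Cd28*, *Ctla4* and *Icos* lie next to each other on chromosome 1, and *Cd5* and *Cd6* next to each other on chromosome 19, while *Pdcd1* lies elsewhere on chromosome 1.

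Accessible chromatin was measured in 4 sorted cell types of C57BL/6 mice between 4 and 8 weeks of age. CD4 single positive thymocytes (CD4SP, 2 libraries) are conventional T cells, and natural killer T (NKT) thymocytes (2 libraries), recognised with CD1d tetramers loaded with αGalCer, are innate-like T cells. Common lymphoid precursors (CLP, 3 libraries) were sorted from bone marrow as Lin- IL-7Rα+ cells with intermediate cKit and Sca-1 and high Flt3. Innate lymphoid cell precursors (ILCP, 2 libraries) were sorted from bone marrow as Lin- IL-7Rα+ α4β7+ eGFP+ cells, with the green fluorescence coming from a *Zbtb16* reporter allele, which the labels do not list. PD-1 was not part of the sorting gate given for these cells. NKT were compared with CD4SP and ILCP with CLP, the controls that do not express PLZF (encoded by *Zbtb16*), and the 4 thymic libraries were compared with the 5 bone marrow libraries. Tissue and lineage cannot be told apart in the last of these.

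The libraries held between 19343 and 41535 peaks. The smallest list was that of CLP replicate 1, while the other 2 CLP lists, with 41535 and 40136 peaks, were the largest. The start sites of all 6 T cell marker genes examined (*Cd3e*, *Cd3d*, *Cd3g*, *Cd4*, *Lck* and *Themis*) were open in each thymic library, against 2 in each CLP library and 3 in each ILCP library. *Zbtb16* was open at its start site in both NKT, both ILCP and 1 CLP library. Of 5 NKT markers, 3 and 4 were open in NKT, 2 in each CD4SP library (*Il2rb* and *Slamf1*) and 0 or 1 in the bone marrow libraries, with *Klrb1c* open in none. Of 5 CLP markers, 4 or 5 were open in CLP, 3 or 4 in ILCP (*Flt3*, *Kit* and *Cd34* in both) and 1 or 2 in the thymic libraries. The ILCP markers did not single out ILCP, since *Id2*, *Gata3* and *Tox* were open in all 9 libraries, all 5 were open in both NKT libraries and in CLP replicate 2, and *Itgb7*, which encodes the β7 chain used in the ILCP sort, was closed in both ILCP libraries. Of markers of other cells, 0 or 1 of 5 myeloid and 2 to 4 of 5 erythroid start sites were open per library, and of B cell genes *Pax5* or *Blk* was open in 8 of 9 libraries and *Cd79a* and *Ms4a1* in none.

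The 6 windows were richer in peaks in thymocytes than in bone marrow precursors, with *Pdcd1* as the receptor that instead had more peaks in both innate types. Together they held 35 and 40 peaks in the CD4SP libraries, 33 and 35 in NKT, 12, 15 and 13 in CLP, and 15 and 13 in ILCP. Relative to the size of each list this was 9.02 to 10.6 receptor peaks per 10000 peaks in the thymic libraries and 3.24 to 6.2 in the bone marrow libraries, so the groups did not overlap. Of the 59 intervals, 35 were open only in thymic libraries, 6 only in bone marrow libraries and 3 in all 9 libraries. Of all 71400 intervals 27% were open only in thymic libraries, 33.6% only in bone marrow libraries and 13.3% in all 9. Of the 59 intervals, 14 were open in a single library each, compared with 18% of all intervals, and these overlap with the first counts.

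All 6 windows were dense in intervals. *Cd28* had 14, *Pdcd1* and *Cd5* 10 each, *Ctla4* 9, and *Icos* and *Cd6* 8 each, while the median over all protein-coding genes was 3. Of the 59 intervals, 6 covered a start site, 16 lay in introns, 20 upstream and 17 downstream of the gene. Upstream and downstream are counted from the main protein-coding transcript, and distances from its start site, with positive values in the direction of transcription.

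**Figure D1:**
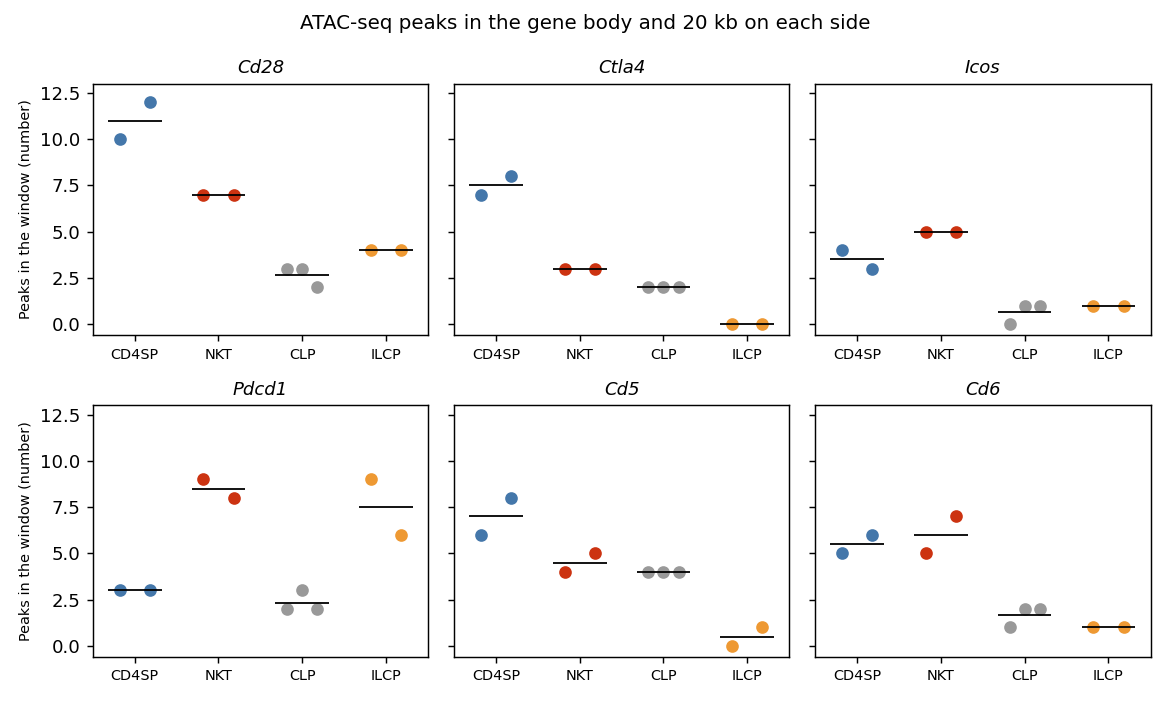
Number of ATAC-seq peaks (y axis) in the gene body and 20 kb on each side of the 6 receptor genes, by cell type (x axis). Each point is 1 library and each line the mean of its cell type. *Pdcd1* had 8 or 9 peaks in NKT and 6 or 9 in ILCP but 2 or 3 in CD4SP and CLP, while *Ctla4* had 7 or 8 in CD4SP and 0 in ILCP.

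*Pdcd1* (ENSMUSG00000026285.7, chr1:94038305-94052553, minus strand) had more peaks in both innate types than in their controls. Its window held 9 and 8 peaks in the NKT libraries and 3 in each CD4SP library, a mean of 8.5 ± 0.707 (SD, n = 2) against 3 ± 0 (SD, n = 2). It held 9 and 6 peaks in the ILCP libraries and 2, 3 and 2 in CLP, a mean of 7.5 ± 2.12 (SD, n = 2) against 2.33 ± 0.577 (SD, n = 3). The groups did not overlap in either comparison. *Pdcd1* and *Icos* were the receptors with more peaks in every NKT than in every CD4SP library, as were 9.48% of all genes tested and 14.1% of the 2407 genes that, like these receptors, had 8 to 14 intervals. *Pdcd1* and *Cd28* were those with more peaks in every ILCP than in every CLP library, as were 4.69% of genes (4.2% of those with 8 to 14 intervals). Some of the added *Pdcd1* peaks came from the start-site interval, which was 1 peak in each CD4SP and CLP library but 2 in each NKT library and 3 and 2 in ILCP. Counted as intervals, the window had 8 and 7 open in NKT against 3 in each CD4SP library, and 7 and 5 in ILCP against 2, 3 and 2 in CLP, again without overlap.

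The exact two-sided permutation tests of these differences, 5.5 peaks in thymus and 5.17 peaks in bone marrow, gave p = 0.33 and p = 0.1. These are the smallest values that 2 against 2 and 2 against 3 libraries allow, so the tests cannot pass 0.05, and adjusted over all genes they were 1 and 0.8. Both differences kept their sign in each alternative processing that was run, but fell to 3 and 4 peaks when each list was cut to its 19343 highest-scoring peaks, the size of the smallest, and to 2.5 and 3.5 peaks in the higher-scoring 50%. Within the gene body alone they were 2 and 2.83 peaks.

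The intervals behind these counts differed between the innate types. Specific to NKT means a peak in both NKT and in neither CD4SP library, and the other classes were formed in the same way. Over all intervals open in the libraries compared, 6.48% were specific to NKT and 8.67% to ILCP. In the 6 receptor windows, 2 of the 53 intervals open in NKT or CD4SP libraries were specific to NKT, both at *Pdcd1*. Of the 24 open in ILCP or CLP libraries, 5 were specific to ILCP, of which 3 were at *Pdcd1*. The NKT share was below that over all intervals and the ILCP share above it, and neither was tested. In the higher-scoring 50% of each list, the 6 windows held 1 NKT-specific and 4 ILCP-specific intervals. Among all genes, 2.25% had at least 2 NKT-specific intervals, 1.03% at least 3 ILCP-specific intervals, and 0.33% (73 genes) reached both. Among the 2407 genes with 8 to 14 intervals these shares were 7.44%, 2.99% and 0.789%.

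The interval 11.9 kb after the *Pdcd1* start site, chr1:94040124-94041182, covers intron 3 with exons 2 to 4 and was open in the ILCP libraries alone. By the peak caller's score its peaks stood in the upper 15.3% of the list of ILCP replicate 1 and the upper 11.1% of that of replicate 2, where a low percentage means a strong peak. The interval at 10.1 kb, chr1:94041864-94043122 in intron 1, was open in the NKT libraries alone, at the upper 26% and 33.3%. Each innate type therefore had a *Pdcd1* interval of its own among these 9 libraries, and the midpoints of these intervals lay at 11.9 and 10.1 kb. A second intron 1 interval, at 4.3 kb (chr1:94047612-94048816), was open in both ILCP libraries at the upper 20.6% and 26.9%. It was also open in NKT replicate 1, near the end of that list (upper 87.1%), and in no CD4SP or CLP library.

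The interval at 26.9 kb, chr1:94025109-94026128, was the only one of the 59 that was specific to both NKT and ILCP. It lies in the neighbouring gene *Neu4*, which encodes a sialidase. It ranked in the upper 48.9% and 42% in ILCP and 55.1% in NKT replicate 1, but its peak in NKT replicate 2 was close to the lowest of the list (upper 99.9%). Its NKT call is therefore the less certain.

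The central 200 bases of these 4 intervals are printed because they carry the peaks that set NKT and ILCP apart from CD4SP and CLP at *Pdcd1*. They are on the plus strand of mm10 (GRCm38.p6), 5′ to 3′. Capitals mark words searched on both strands, which were TGTGGT or TGCGGT for Runx, CTTTGA for Tcf, AGATAA for the GATA family, TGGAAA for NFAT, TGANTCA for AP-1 and CAGNTG for E-box proteins. None of the marked words in the printed sequences overlap each other.
Pdcd1 11.9 kb, ILCP only, chr1:94040554-94040753: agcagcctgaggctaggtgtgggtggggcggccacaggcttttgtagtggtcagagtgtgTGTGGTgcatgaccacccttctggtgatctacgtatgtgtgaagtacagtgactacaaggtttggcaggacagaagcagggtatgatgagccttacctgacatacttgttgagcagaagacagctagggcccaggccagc
Pdcd1 4.3 kb, ILCP and NKT replicate 1, chr1:94048115-94048314: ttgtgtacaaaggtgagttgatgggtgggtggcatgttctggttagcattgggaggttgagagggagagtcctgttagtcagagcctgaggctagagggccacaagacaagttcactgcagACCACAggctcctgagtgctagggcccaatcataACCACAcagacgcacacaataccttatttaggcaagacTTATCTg
Pdcd1 10.1 kb, NKT only, chr1:94042394-94042593: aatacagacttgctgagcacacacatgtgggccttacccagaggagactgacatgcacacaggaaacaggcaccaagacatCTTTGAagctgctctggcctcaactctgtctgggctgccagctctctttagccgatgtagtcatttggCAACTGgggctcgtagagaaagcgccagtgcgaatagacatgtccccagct
Pdcd1 26.9 kb, NKT and ILCP, chr1:94025519-94025718: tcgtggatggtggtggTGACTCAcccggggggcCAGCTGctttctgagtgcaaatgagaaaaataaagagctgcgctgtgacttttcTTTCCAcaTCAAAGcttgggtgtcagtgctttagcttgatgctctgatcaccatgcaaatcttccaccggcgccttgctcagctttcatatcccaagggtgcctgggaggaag

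The ILCP-specific sequences at 11.9 and 4.3 kb held 1 and 2 Runx words, and that at 4.3 kb also 1 GATA word. The NKT interval at 10.1 kb held 1 Tcf and 1 E-box word and no Runx word. The shared interval at 26.9 kb held 1 Tcf, 1 NFAT, 1 AP-1 and 1 E-box word. Across all intervals, 28.5% had a Runx word in their central 200 bases, 16.6% a Tcf word, 9.72% a GATA word, 14.9% an NFAT word, 6.82% an AP-1 word and 45.3% an E-box word. A match describes letters in this stretch and is not evidence of binding.

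Among the other 6 *Pdcd1* intervals, the start site and 1 downstream interval were common to all cell types, while the other 4, at 20.3 and 5.9 kb after and 2.7 and 3.6 kb before the start site, were open in 3, 1, 2 and 5 libraries. The start-site interval was open in all 9 libraries, at the upper 5.11% and 11.3% in CD4SP, 14.9% and 20.2% in NKT, 37.9%, 12.1% and 10.5% in CLP, and 26.7% and 22.3% in ILCP. The interval 17 kb after the start site, chr1:94034439-94036571, which lies downstream of the gene, was the best-ranked of the window everywhere. It stood in the upper 0.0427% to 1.33% of every library, with both ILCP libraries at the strong end (0.0456% and 0.0427%) and CLP replicate 1 at the weak end. The best peak in the *Pdcd1* window was thus among the strongest of the list in all 4 cell types. These data do not tell whether that interval belongs to *Pdcd1*. The 3 genes with the most similar best-peak profile over the 9 libraries were *Ctsc*, *Plcxd2* and *Mpp7*. They differed from *Pdcd1* by means of 0.054, 0.0669 and 0.122 percentage points of rank. The RefSeq promoter of *Pdcd1*, 300 bases around its start site, held none of the 6 words.

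**Figure D2:**
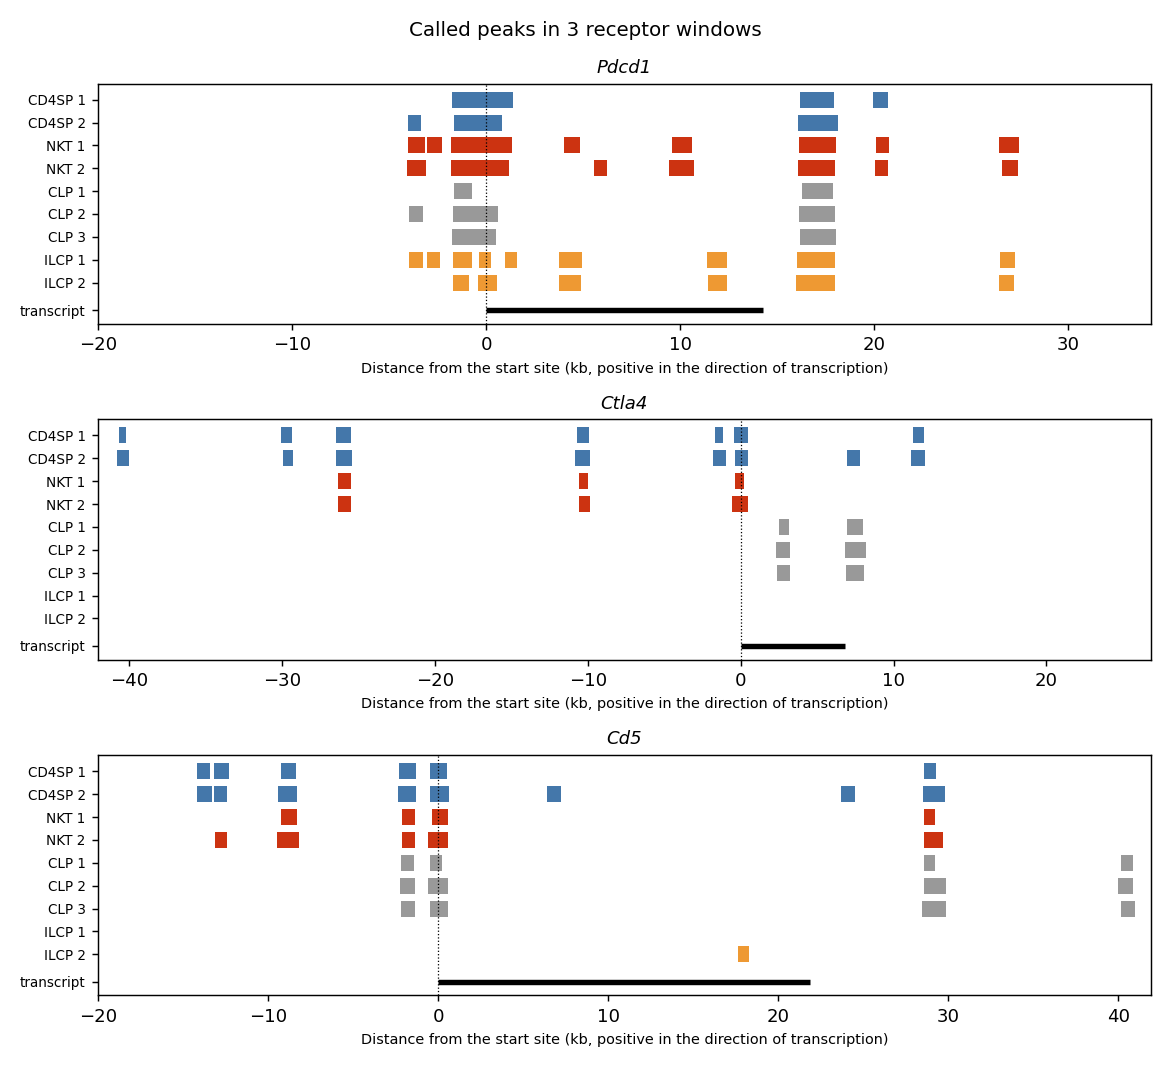
Peaks called in each library (rows) in the windows of *Pdcd1*, *Ctla4* and *Cd5*, drawn to scale by distance from the start site in kb (x axis, positive in the direction of transcription). Bars are peaks, coloured by cell type, and the black bar is the main transcript. Intron peaks of *Pdcd1* occurred in NKT and ILCP, all *Ctla4* rows of ILCP are empty, and the single *Cd5* peak of ILCP is at 17.9 kb.

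*Ctla4* (ENSMUSG00000026011.13, chr1:60887000-60915832, plus strand) showed the opposite order. Its window held 7 and 8 peaks in CD4SP, 3 in each NKT library, 2 in each CLP library and none in either ILCP library. The 4 cell types did not overlap with one another. The NKT mean of 3 ± 0 (SD, n = 2) was 4.5 peaks under the CD4SP mean of 7.5 ± 0.707 (SD, n = 2), with an exact permutation p = 0.33, the smallest possible, and the difference shrank to 1 peak at 19343 peaks a list and in the higher-scoring 50%. *Ctla4*, *Cd28* and *Cd5* were the receptors with fewer peaks in every NKT than in every CD4SP library, as were 6.61% of genes (10.9% of those with 8 to 14 intervals). ILCP had 2 peaks fewer than CLP (exact permutation p = 0.1, the smallest possible). The difference of ILCP from CLP was -1.33 peaks at 19343 peaks a list and -1 both in the higher-scoring 50% and within the gene body alone. *Ctla4* and *Cd5* were the receptors lower in every ILCP library, as were 10% of genes (17% of those with 8 to 14 intervals).

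The start-site interval of *Ctla4*, chr1:60908473-60909514, was a thymic one. It ranked in the upper 24.8% and 31.4% in CD4SP and 43.2% and 55.3% in NKT, and no bone marrow library had a peak there. Intervals 26 and 10.3 kb upstream were likewise open in all 4 thymic libraries and no other. That at 26 kb stood in the upper 23.6% to 38.9%, and that at 10.3 kb fell from the upper 50% and 67.2% in CD4SP to 92.3% and 95.4% in NKT. Over all 71400 intervals 7.04% were open in every thymic and no bone marrow library, and in the receptor windows 9 were, with 3 each at *Ctla4* and *Cd6* and 1 each at *Cd28*, *Icos* and *Cd5*.

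CD4SP cells had 4 further *Ctla4* intervals that NKT cells lacked, 40.4, 29.7 and 1.4 kb before and 11.6 kb after the start site. Of the 21938 genes, 41 (0.187%) had as many or more, and 6 of the 2407 with 8 to 14 intervals (0.249%). Over all intervals open in the NKT or CD4SP libraries, 5.21% were specific to CD4SP. The receptor windows held 7 among 53 such intervals, the other 3 being 1 each at *Cd28*, *Cd5* and *Cd6*. The *Ctla4* intervals were weak peaks, however. The strongest, at 1.4 kb upstream and 11.6 kb downstream, reached the upper 64.3% and 62% in CD4SP replicate 2, and that at 40.4 kb the upper 94.5% and 95.9%. When only the higher-scoring 50% of each list was used, no CD4SP-specific interval was left in the 6 windows, against 1 NKT-specific interval, and all 4 *Ctla4* calls therefore rest on low-ranked peaks.

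CLP, in turn, had *Ctla4* intervals that ILCP lacked. Over all intervals open in the ILCP or CLP libraries, 8.18% were specific to CLP. The receptor windows held 7 among 24 such intervals, 4 at *Cd5*, 2 at *Ctla4* and 1 at *Cd28*. The *Ctla4* interval in intron 1 at 2.8 kb was open in all 3 CLP libraries alone, at the upper 89.6%, 55.8% and 76.2%. That at 7.5 kb, just beyond the gene, ranked in the upper 44.5%, 33% and 41.7% in CLP and was also open in CD4SP replicate 2 (upper 91.9%). CLP thus had peaks inside and behind *Ctla4* without a peak at its start site.

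The *Ctla4* promoter is printed because it underlies the thymic start-site peak. It comes from RefSeq on GRCm38.p6, in which 3 of the 6 receptors (*Ctla4*, *Cd5* and *Pdcd1*) were matched, and is written 5′ to 3′ on the plus strand with the same words in capitals.
Ctla4 promoter, chr1:60908775-60909074, plus strand: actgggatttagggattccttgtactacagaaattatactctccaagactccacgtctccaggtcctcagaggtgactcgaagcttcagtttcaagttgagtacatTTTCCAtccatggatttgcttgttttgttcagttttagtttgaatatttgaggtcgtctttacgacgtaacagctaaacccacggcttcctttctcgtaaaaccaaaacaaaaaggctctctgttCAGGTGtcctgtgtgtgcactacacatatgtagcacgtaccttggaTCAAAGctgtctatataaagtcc
It held 1 NFAT, 1 E-box and 1 Tcf word, which occurred in 21.4%, 51.4% and 16% of 32851 promoters of the same length.

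**Figure D3:**
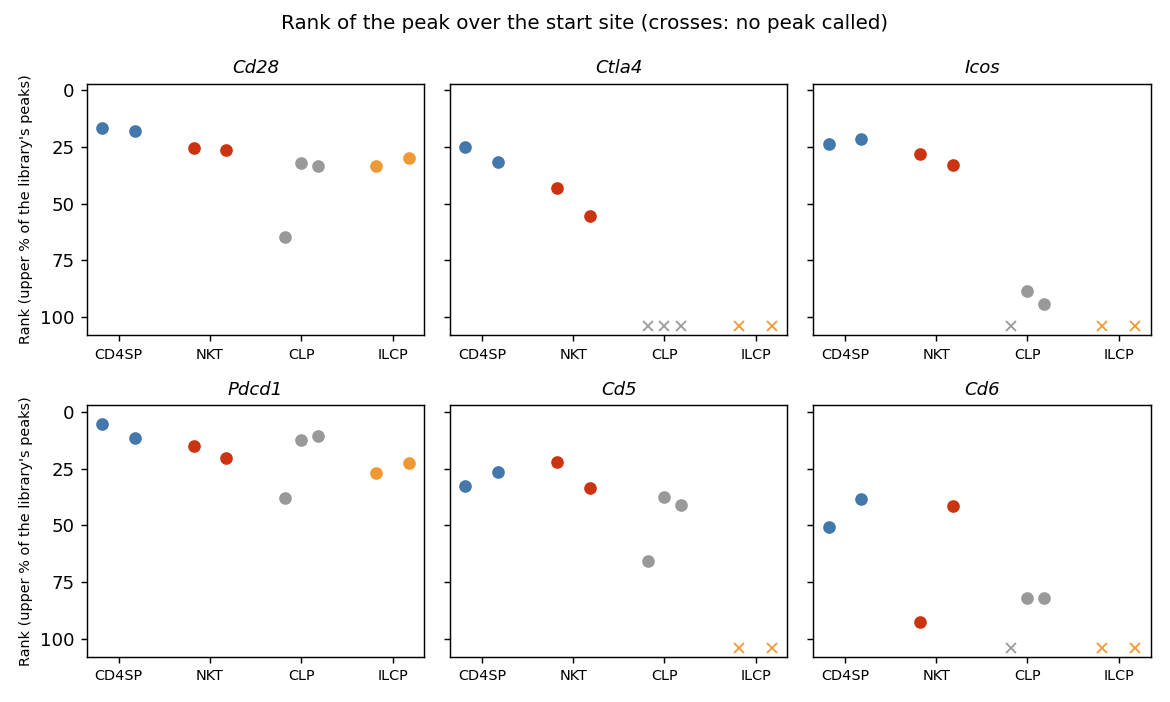
Rank of the best peak in the interval over the main start site of each receptor gene, as the upper percentage of the library's peaks (y axis, reversed so that strong peaks are at the top), by cell type (x axis). Each point is 1 library and crosses are libraries with no peak. *Cd28* and *Pdcd1* had a peak in the start-site interval in all 9 libraries, *Ctla4* in the 4 thymic libraries, and *Icos*, *Cd5* and *Cd6* in no ILCP library. The best *Pdcd1* peak of the interval lay before the start site in CLP replicate 1, NKT replicate 1 and both ILCP libraries.

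*Cd28* (ENSMUSG00000026012.2, chr1:60716800-60773359, plus strand) had the most peaks of the 6 receptors in CD4SP cells, 10 and 12, against 7 in each NKT library. Its window held 4 peaks in each ILCP library and 3, 3 and 2 in CLP. Thus *Cd28* had 4 peaks fewer in NKT than in CD4SP (exact permutation p = 0.33, the smallest possible) but 1.33 more in ILCP than in CLP (exact permutation p = 0.1, the smallest possible), with no overlap in either comparison. Per 10000 peaks *Cd28* overlapped in bone marrow, with 1.52 and 1.55 in ILCP against 1.55, 0.722 and 0.498 in CLP, while *Icos* did not, with 0.38 and 0.388 against 0, 0.241 and 0.249. The NKT difference was 0 at 19343 peaks a list and in the higher-scoring 50%, where the ILCP difference was 1.17 and 1.67. The difference between the NKT and ILCP differences on the full lists was -5.33 peaks. It was the only one among the 6 receptors to reach the smallest p of the exact permutation within tissues (p = 0.0167 over 60 arrangements). It did not hold after adjustment of the permutation test over 17731 genes (adjusted p = 0.966), and no gene passed an adjusted 0.05, while 189 had an unadjusted p under 0.05.

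The *Cd28* start site was open everywhere, at the upper 16.8% and 17.8% in CD4SP, 25.4% and 26.1% in NKT, 64.8%, 31.9% and 33.5% in CLP, and 33.2% and 29.8% in ILCP. The strongest *Cd28* interval in thymocytes lay 31 kb after the start site, downstream of the gene at chr1:60776498-60778222. It ranked in the upper 7.05% and 5.89% in CD4SP and 22.7% and 17.9% in NKT. No CLP library had a peak there, and of the ILCP libraries replicate 2 had a weak one (upper 89.7%).

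The next interval but one, at 35.5 kb (chr1:60781267-60782352), was the *Cd28* interval specific to ILCP over CLP. It ranked in the upper 49.7% and 67.5% in ILCP, and in the upper 27.5% to 37.5% in the 4 thymic libraries. Both intervals overlap the noncoding gene *Gm11579*, and these data do not tell which gene an open region belongs to. An interval 32.5 kb before the start site was open in the 4 thymic libraries only (upper 23.3% to 65.9%), and 1 at 43.4 kb before it in the 3 CLP libraries only (upper 46.2% to 65.4%). In intron 1, an interval at 13.6 kb was open in both CD4SP libraries alone (upper 69.4% and 62.5%).

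*Icos* (ENSMUSG00000026009.14, chr1:60977927-61000320, plus strand) was a receptor of the thymic libraries. Its window held 4 and 3 peaks in CD4SP, 5 in each NKT library, 0, 1 and 1 in CLP and 1 in each ILCP library. The NKT excess of 1.5 peaks (exact permutation p = 0.33, the smallest possible) came from peaks found in 1 library each, and no *Icos* interval was specific to NKT. It turned to -0.5 at 19343 peaks a list and in the higher-scoring 50%, but was 1 at 33648 peaks a list, the smaller CD4SP list. ILCP and CLP overlapped, with a mean difference of 0.33 peaks (exact permutation p = 1).

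The *Icos* start site ranked in the upper 23.6% and 21.5% in CD4SP and 27.9% and 32.9% in NKT. CLP replicates 2 and 3 had weak peaks there (upper 88.4% and 94.4%), and CLP replicate 1 and both ILCP libraries had none. An interval 3.7 kb before the start site was open in the 4 thymic libraries only (upper 41.9% to 74.6%). The only *Icos* peak in ILCP lay in intron 1 at 12.6 kb (chr1:60989860-60991168), at the upper 48.1% and 83.4%. This interval was closed in all 3 CLP libraries and ranked in the upper 27.6% to 38.5% in the thymic libraries.

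The ILCP-specific intervals of the costimulatory genes, at *Cd28* 35.5 kb and *Icos* 12.6 kb, were thus both open in all 4 thymic libraries, whereas none of the 3 at *Pdcd1* was open in all 4. Their central 200 bases are printed for comparison with those of *Pdcd1*, on the plus strand with the same words in capitals.
Cd28 35.5 kb, chr1:60781710-60781909: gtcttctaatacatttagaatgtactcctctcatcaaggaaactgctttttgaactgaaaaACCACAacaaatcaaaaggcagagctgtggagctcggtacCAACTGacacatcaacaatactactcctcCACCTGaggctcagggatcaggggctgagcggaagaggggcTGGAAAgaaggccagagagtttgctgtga
Icos 12.6 kb, chr1:60990415-60990614: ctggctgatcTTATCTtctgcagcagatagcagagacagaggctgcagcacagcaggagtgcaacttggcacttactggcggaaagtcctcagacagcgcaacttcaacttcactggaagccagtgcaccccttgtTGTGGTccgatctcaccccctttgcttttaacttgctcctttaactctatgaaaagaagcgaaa
Each held 1 Runx word. That of *Cd28* also held 1 NFAT and 2 E-box words, and that of *Icos* 1 GATA word.

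*Cd5* (ENSMUSG00000024669.8, chr19:10717116-10739002, minus strand) was nearly without peaks in ILCP. Its window held 6 and 8 peaks in CD4SP, 4 and 5 in NKT, 4 in each CLP library, and 0 and 1 in ILCP. ILCP had 3.5 peaks fewer than CLP, 0.5 ± 0.707 (SD, n = 2) against 4 ± 0 (SD, n = 3), without overlap (exact permutation p = 0.1, the smallest possible, adjusted p = 0.8). The lists of CLP replicates 2 and 3 were longer than those of ILCP, and at 19343 peaks a list the difference was -2.17 peaks, and -1.67 in the higher-scoring 50%. It also lay mostly outside the gene, being -1.5 peaks with 5 kb on each side and -0.5 within the gene body alone. The *Cd5* window had 4 CLP-specific intervals, and 72 of the 21938 genes (0.328%), *Cd5* among them, had as many or more, as had 13 of the 2407 with 8 to 14 intervals (0.54%).

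These 4 intervals were the start site, the interval 1.8 kb before it, and intervals 29.2 and 40.5 kb after it. The start site ranked in the upper 65.7%, 37.6% and 40.8% in CLP, 32.4% and 26.4% in CD4SP and 22.1% and 33.6% in NKT. The intervals at 1.8 and 29.2 kb were also open in all 4 thymic libraries, so ILCP was the only cell type without them. The interval at 40.5 kb was open in the CLP libraries alone, at the upper 88.1%, 49.7% and 50.1%. It and that at 29.2 kb lie in the neighbouring gene *Vps37c*, which encodes a subunit of an endosomal sorting complex. The only ILCP peak of the window was in replicate 2, in intron 9 at 17.9 kb (upper 67.7%), near the start site of a shorter *Cd5* transcript.

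The *Cd5* promoter is printed because its interval was open in the 7 libraries other than ILCP. It is the RefSeq sequence on GRCm38.p6, 5′ to 3′ on the minus strand.
Cd5 promoter, chr19:10738925-10739224, minus strand: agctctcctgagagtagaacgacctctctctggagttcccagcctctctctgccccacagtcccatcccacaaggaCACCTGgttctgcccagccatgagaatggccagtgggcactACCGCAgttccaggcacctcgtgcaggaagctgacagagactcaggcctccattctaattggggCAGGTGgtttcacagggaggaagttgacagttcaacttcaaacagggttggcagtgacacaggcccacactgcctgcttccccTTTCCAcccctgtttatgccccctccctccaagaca
It held 1 Runx, 1 NFAT and 2 E-box words. Runx words occurred in 22.4% of all promoters.

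Against NKT, CD4SP had 2.5 *Cd5* peaks more (exact permutation p = 0.33, the smallest possible), without overlap. The difference turned to 0.5 and 1 peaks in favour of NKT at 19343 peaks a list and in the higher-scoring 50%, but stayed at 2.5 peaks in favour of CD4SP at 33648 peaks a list. An interval 13.7 kb before the *Cd5* start site was specific to CD4SP (upper 74.6% and 65.1%), and 1 at 8.8 kb before it was open in the thymic libraries only. At 8.8 kb the NKT peaks ranked in the upper 33.7% and 24.6% and the CD4SP peaks in the upper 59.5% and 45.7%, so the NKT peaks were the stronger ones for their lists.

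*Cd6* (ENSMUSG00000024670.17, chr19:10789341-10830058, minus strand) had more peaks in thymus than in bone marrow. Its window held 5 and 6 peaks in CD4SP, 5 and 7 in NKT, 1, 2 and 2 in CLP and 1 in each ILCP library. NKT and CD4SP overlapped, with a difference of 0.5 peaks (exact permutation p = 1), as did ILCP and CLP, with a difference of -0.667 peaks (exact permutation p = 0.4). Its start site ranked in the upper 50.9% and 38.2% in CD4SP, 92.5% and 41.2% in NKT and 82.2% and 81.8% in CLP replicates 2 and 3. CLP replicate 1 and both ILCP libraries had no peak there.

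The thymic-specific intervals of *Cd6* were not at its start site but beyond its other end, 42.1, 46.3 and 53 kb from the start site on the side of *Cd5*. That at 42.1 kb ranked above the start site in each thymic library. All 3 were open in the 4 thymic libraries and in no bone marrow library, at the upper 20.7% to 52.8%, 29% to 52.5% and 47.2% to 74%. Between the windows of *Cd6* and *Cd5* lay 10338 bp with 3 more intervals, again open only in thymic libraries. These intervals may belong to either gene or neither. Another, at 48.2 kb, was open in both CD4SP libraries alone, at the upper 89.8% and 81.2%.

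The only receptor-window interval that was open in every bone marrow and no thymic library lay 12.4 kb before the *Cd6* start site. It covers the start site of *Slc15a3*, which encodes a peptide and histidine transporter. It ranked in the upper 36.3%, 13.7% and 13.9% in CLP and 50.4% and 56.1% in ILCP. Over all intervals 2.04% were of this kind.

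**Figure D4:**
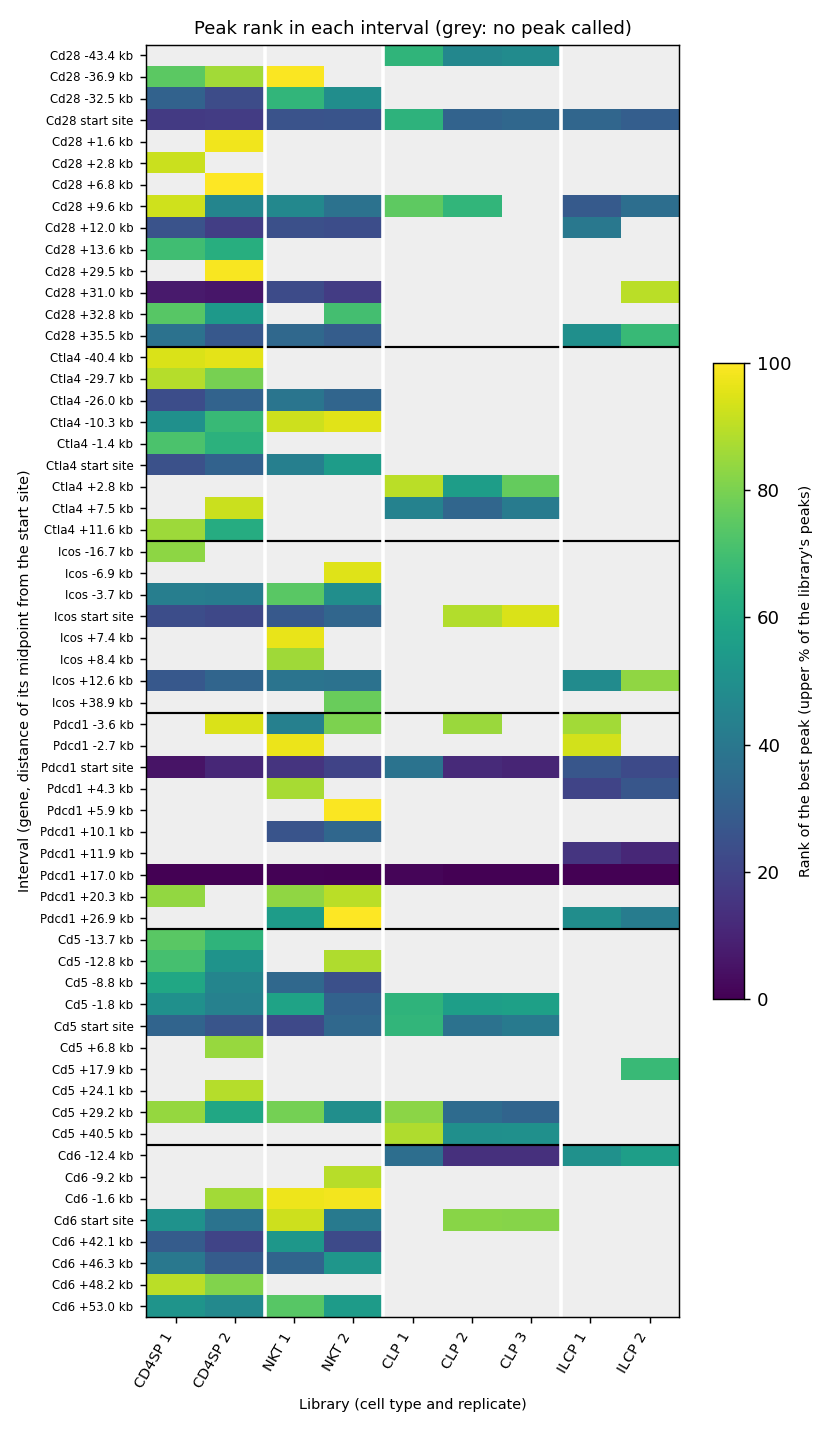
Rank of the best peak of each library (columns) in each of the 59 receptor intervals (rows, by gene and distance from the start site in kb), as the upper percentage of the library's peaks. Dark is a strong peak and grey means that no peak was called. Most rows are coloured in the thymic columns alone, and the intron rows of *Pdcd1* at 10.1 and 11.9 kb in NKT or ILCP alone.

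Across the thymic and bone marrow libraries, *Cd28*, *Ctla4*, *Icos* and *Cd6* had more peaks in every thymic library than in any bone marrow library. The thymic mean (n = 4) was higher than the bone marrow mean (n = 5) by 5.8 peaks for *Cd28*, 4.05 for *Ctla4*, 3.45 for *Icos* and 4.35 for *Cd6*, each with p = 0.00794 in the exact two-sided permutation test, the smallest possible. The adjusted p over 17731 genes was 0.0618 for each, so none of these passed 0.05. No gene passed at an adjusted p under 0.05, although 5455 had an unadjusted p under 0.05. The test permuted single libraries, so replicates of the same cell type counted as separate units of a tissue. Its p-values do not measure the spread between cell types of a tissue. With peaks expressed per 10000 peaks of the library, the adjusted p of the permutation test became 0.0495 for *Cd28*, *Icos* and *Cd6* and 0.106 for *Ctla4*, and 3 receptors in place of 4 were without overlap. In peak numbers, the 4 of 6 receptors compare with 12.8% of all genes tested, and with 20.4% of those with 8 to 14 intervals.

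*Cd5* and *Pdcd1* did not separate the tissues in these windows. *Cd5* had 3.15 more peaks in thymus, with CLP and NKT both reaching 4 (exact permutation p = 0.0794, adjusted p = 0.223). With 50 kb on each side, where its window runs into that of *Cd6*, the *Cd5* excess was 9.4 peaks (adjusted permutation p = 0.0536) and 5 receptors were without overlap. *Pdcd1* had 1.35 more (exact permutation p = 0.627, adjusted p = 0.825), with ILCP and NKT both reaching 9, and per 10000 peaks the difference turned to -0.0155. Single libraries moved this value, which was 0.267 without NKT replicate 1, 0.6 without NKT replicate 2, 0.75 without CLP replicate 1 or 3, 2.27 without either CD4SP replicate and 2.5 without ILCP replicate 1. No receptor had more peaks in every bone marrow than in every thymic library, compared with 3.54% of genes. The lists of CLP replicate 1 and of ILCP were shorter than the thymic lists and those of CLP replicates 2 and 3 longer. Within the gene body alone the thymic excess of *Cd6* was 0.6 peaks (adjusted permutation p = 0.427), compared with 4.35 in the whole window. That of *Cd28* was 2.25, that of *Ctla4* 1.9 and that of *Icos* 1.7 peaks there. At 19343 peaks a list the thymic excess was 2.7 peaks for *Cd28*, 1.2 for *Ctla4*, 2.55 for *Icos* and 2 for *Cd6*, and 3 receptors were without overlap.

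Of 22 receptor intervals open in all 4 thymic libraries, 14 were closed in both ILCP libraries, compared with 37.3% of the 24221 such intervals in the genome. All 3 such intervals of *Ctla4* and all 4 of *Cd5* and of *Cd6* were closed, as were 2 of 3 at *Icos* and 1 of 6 at *Cd28*, whereas both of *Pdcd1* were open. ILCP thus had the thymic intervals of *Cd28* in part, and those of *Ctla4*, *Cd5* and *Cd6* in no case.

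The 59 intervals had a median GC content of 47% in their central 200 bases, against 49.5% for all intervals. A Runx word was present in 17 of them (28.8%, against 28.5% of all), a Tcf word in 11 (18.6%, against 16.6%) and an AP-1 word in 7 (11.9%, against 6.82%). GATA and NFAT words were present in 13 each (22%, against 9.72% and 14.9%), and E-box words in 34 (57.6%, against 45.3%). These shares are given as a description, without a test.

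Other genes of the same pathway were counted from lists of receptors, ligands and signal mediators. All 7 other costimulatory receptors (*Cd2*, *Cd27*, *Cd226*, *Crtam*, *Tnfrsf4*, *Tnfrsf9* and *Tnfrsf18*) had more peaks in every thymic than in every bone marrow library, compared with 12.8% of all genes tested and 20.4% of those with 8 to 14 intervals. All 7 had a thymic-specific interval, which 18.7% of all genes had and 46.5% of those with 8 to 14 intervals. *Cd226*, an adhesion receptor of T and NK cells, had the most specific intervals among them. Its window held 13 and 13 peaks in CD4SP, 13 and 9 in NKT, 1, 3 and 3 in CLP and 6 and 7 in ILCP, with 3 ILCP-specific, 2 CD4SP-specific and 4 thymic-specific intervals. *Tnfrsf9*, which encodes the costimulatory receptor 4-1BB, also had 4 thymic-specific intervals, with 9 to 12 peaks in the thymic and 2 or 3 in the bone marrow libraries. No gene of this list had an NKT-specific interval, compared with 11.5% of all genes. A CD4SP-specific one was present at 5 of 7, compared with 8.37% of all genes and 23% of those with 8 to 14 intervals.

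Other inhibitory receptors differed among themselves. Of 9 (*Btla*, *Lag3*, *Havcr2*, *Tigit*, *Cd96*, *Cd160*, *Cd200r1*, *Vsir* and *Lair1*), 1 had an NKT-specific interval, compared with 11.5% of all genes, and 4 had an ILCP-specific one (1 each), compared with 13.8%. None had more peaks in every NKT than in every CD4SP library or in every ILCP than in every CLP library, compared with 9.48% and 4.69% of genes. CLP-specific intervals were present at 5 of 9, compared with 16.4% of genes, and thymic-specific intervals at 3 of 9, compared with 18.7%. Whether these lists differ from *Pdcd1* or from other genes was not tested.

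Among 7 ligand genes, 4 had a CLP-specific and 4 a thymic-specific interval, and none an NKT-specific one, compared with 16.4%, 18.7% and 11.5% of all genes. *Alcam*, which encodes the CD6 ligand, had 7, 11 and 11 peaks in CLP, 6 and 7 in ILCP, and 4 or 5 in the thymic libraries, with 2 ILCP-specific and 2 CLP-specific intervals. Of 13 signal mediators, 11 had a thymic-specific and 5 an NKT-specific interval, compared with 18.7% and 11.5% of all genes. More peaks in every thymic than in every bone marrow library were found for 4 of the 13. This held for 12.8% of all genes tested and 20.4% of those with 8 to 14 intervals. The kinase gene *Prkcq*, whose product acts downstream of CD28, had more peaks in CD4SP (20 and 20) than in NKT (11 and 14). It was the only one of the 13 mediators lower in every NKT library. This is near the shares of 6.61% of genes tested and 10.9% of those with 8 to 14 intervals. *Cblb*, a ubiquitin ligase that restrains T cell activation, and *Pik3r1*, a subunit of PI3 kinase, had 5 thymic-specific intervals each.

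The reach of the windows set some counts. The farthest interval inside a window lay 18082 bp from the body of *Cd5*, and the nearest outside lay 20130 bp from *Cd28*, in 4 libraries, and 20684 and 20939 bp from *Cd5*, in 4 and 2 libraries. The annotated records of *Cd28* and *Ctla4* begin 29558 and 22025 bp before the start site of their main coding transcript, so these windows reach farther upstream. The 73640 bp between the windows of *Cd28* and *Ctla4* held 5 intervals, all open only in thymic libraries, and the 22094 bp between those of *Ctla4* and *Icos* held 1.

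Over the 9 libraries, the genes whose best peak ranked most like that of each receptor were *Raver2*, *Fndc3a* and *Gm7271* for *Cd28*, with mean differences of 3.95 to 4.56 percentage points. They were *Mcur1*, *Ntpcr* and *Aff3* for *Ctla4* (3.85 to 4.88), *Cysltr2*, *Cstad* and *Ccdc33* for *Icos* (4.92 to 6.74), *Epsti1*, *Gm49711* and *Mrps6* for *Cd5* (4.43 to 5.56) and *Cage1*, *Mfsd2b* and *Wdcp* for *Cd6* (2.35 to 3.83). The differences for *Pdcd1*, in whose window the best peak was near the top of every list, were smaller.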

How the data were processed

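ATAC-seq gave 9 libraries of 10000 to 50000 sorted cells. The authors aligned reads of 50 bp to mm10 with bowtie, allowing 2 mismatches, and peaks were called with MACS, 1 list per library. The submitters' processing notes also list Picard and HOMER. The caller's version and settings, duplicate removal and shifting of read ends are not given in the sources used here. The deposited lists give each peak's position and a score (lowest 120), which was used only for ranking within a library. They hold no read counts, and the methods give reads only as a range over all libraries, so the depth of each is unknown and no counting interval is given. The Runx1 ChIP-seq and input samples were not used here.

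Peaks were merged into intervals with Python 3.11.15, numpy 2.4.6 and pandas 2.3.3. Genes came from GENCODE M21, sequences from GRCm38.p6 read with pysam 0.24.0. Mean peak numbers were compared by exact two-sided permutation of libraries for every protein-coding gene with a peak, and adjusted over all of them by the Benjamini-Hochberg method. The difference between the NKT and ILCP comparisons was permuted within tissues. The labels give replicates without saying that they came from separate mice, and the study's methods call them biological. The p-values measure the spread between these libraries and, for thymus against bone marrow, not that between cell types of a tissue. Replicate numbers were not taken to pair libraries. Named were the 6 receptors, their start-site, specific and best-ranked intervals, the 3 most similar genes each, and the genes with the most specific intervals in the pathway lists. The receptors and lists were chosen with earlier results of these data known. The merging, tests and motif search were tested on simulated data. Alternatives changed the score threshold, window, definition of an open interval, unit and libraries used. A further marker result is not reported here.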

Additional observations from a re-analysis of the deposited data

Results flagged for a closer look

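*Cd28* was the receptor whose NKT and ILCP comparisons differed by a test of the difference itself. NKT minus CD4SP was -4 peaks and ILCP minus CLP 1.33 peaks, a difference of -5.33 peaks (exact permutation within tissues, two-sided, p = 0.0167, the smallest of 60 arrangements). The adjusted p over 17731 genes was 0.966, so it did not hold after adjustment. At 19343 peaks a list and in the higher-scoring 50%, NKT minus CD4SP was 0, and ILCP minus CLP was 1.17 and 1.67. The 4 groups were too small for a search for outlying libraries.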

How the results depend on the processing

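Of 276 differences in peak number recomputed under other settings, 253 kept their direction and side of the threshold, 7 became 0, 3 newly passed the threshold and 13 changed sign. The NKT and ILCP comparisons cannot pass 0.05 with these libraries, so for them only the direction could change. For ILCP against CLP both equal-size settings meant 19343 peaks a list, so their rows are repeats. Those that became 0 were NKT minus CD4SP for *Cd28* at 19343 peaks and in the higher-scoring 50% and for *Cd6* with 0 kb and without CD4SP replicate 1. They also included ILCP minus CLP for *Icos* without CLP replicate 1 and for *Cd6* at 19343 peaks, the latter entered under both equal-size settings. Those that newly passed were the thymic excess per 10000 peaks of *Cd28* (1.32), *Icos* (0.926) and *Cd6* (1.13, adjusted permutation p = 0.0495 each). The sign changed for NKT minus CD4SP at equal list sizes of 19343 peaks for *Icos* (-0.5), *Cd5* (0.5) and *Cd6* (-2), in the higher-scoring 50% for *Icos* (-0.5), *Cd5* (1) and *Cd6* (-1.5), and for *Cd6* alone at the smallest list of the comparison (-1), with 50 kb on each side (-2), in base pairs covered (-1142) and without NKT replicate 2 (-0.5). It changed for thymic minus bone marrow *Pdcd1* at 19343 peaks (-0.1), in the higher-scoring 50% (-0.15) and per 10000 peaks (-0.0155). The cause was not tested.

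Of 177 recomputed counts, 128 stayed within 1.5 times, with the ILCP and CLP counts at equal list size again entered under both settings. In the 6 windows, 2 NKT-specific intervals became 1 at 19343 peaks, in the higher-scoring 50% and with 5 or 0 kb, 4 with 50 kb and 10 when open in at least 1 library sufficed. The 7 CD4SP-specific intervals became 1 at 19343 peaks, 0 in the higher-scoring 50%, 3 with 5 kb, 2 with 0 kb and 15 with 1 library. The 5 ILCP-specific became 3 with 5 or 0 kb and 9 with 1 library. The 7 CLP-specific became 4 at 19343 peaks and with 5 kb, and 2 in the higher-scoring 50% and with 0 kb. The 9 thymic-specific became 4 at 19343 peaks, 3 in the higher-scoring 50%, 2 with 0 kb, 14 with 50 kb and 35 with 1 library. The 1 bone marrow-specific became 0 in the higher-scoring 50%, with 5 or 0 kb and where peaks had to cover at least 50% of the interval, and 6 with 1 library. Receptors with more peaks in every library became 1 for NKT over CD4SP under both equal list sizes, the higher-scoring 50%, 5 or 0 kb and base pairs. They became 1 for ILCP over CLP at 19343 peaks, in the higher-scoring 50%, with 0 kb and in base pairs. They became 1 at 19343 peaks and 0 in the higher-scoring 50% for CD4SP over NKT, 1 with 0 kb for CLP over ILCP, and 2 in the higher-scoring 50% and with 0 kb for thymus over bone marrow.

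Leaving out 1 library at a time gave 3 to 6 NKT-specific intervals, with 6 without either NKT library and 4 without CD4SP replicate 2. It gave 8 to 13 CD4SP-specific intervals, with 13 without CD4SP replicate 1. With replicate numbers as a block, *Pdcd1* had 5.5 peaks more in NKT and 5 more in ILCP, and the block changed no call. The correlations of same-numbered libraries, 0.486 in thymus and -0.0382 in bone marrow over 2 pairs each, do not show that the numbers pair them.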
